A study of Mus musculus with 2 samples.

Results

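Macrophages and other leukocytes are a small population of the embryonic limb, and 10 genes that mark them were followed in distal forelimbs with a rearranged HoxD regulatory landscape. The genes were taken by symbol from the deposited transcript table: Csf1r, Cx3cr1, Mrc1, Ptprc, Tyrobp, Fcer1g, C1qa, C1qb, C1qc and Lyz2. All 10 were found, among 23157 genes in the table, and the table lists 18 transcripts for them. There were 2 groups, wild type and HoxD Inv(TpSB1-Itga6), both of the strain written as C57Bl6CBAF1 and both dissected at E12.5. The labels give distal limb as the tissue of both, but the wild-type sample's title says forelimb where the table's column says distal forelimb, and the column was taken as that sample. If the wild-type tissue were less distal, tissue and genotype could not be told apart in any ratio. The series' design text gives 3 pairs of forelimbs as the dissected material, without saying how they fall to the groups. Per the study's methods the inversion embryos were homozygous, and the series' title gives the inversion beside the HoxD cluster as 2.4 Mb long. Of the 10 genes only Mrc1 lies on chromosome 2, which carries HoxD, at a distance given with its values.

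Macrophages of the mouse embryo arise from the yolk sac and fetal liver and enter tissues through blood vessels. Their survival depends on the receptor encoded by Csf1r, and in the limb they are known for removing dying cells, above all between the forming digits. They sense their surroundings with receptors that signal through the small adaptors encoded by Tyrobp and Fcer1g, and they are a main source of C1q, the recognition molecule of the classical complement pathway.

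The libraries held 9280660 reads for wild type and 9466154 for the inversion, after whole reads were recovered from the deposited values. There was 1 library per genotype, so none of the differences below has a replicate check, and every interval covers counting error only. Normalized reads are the reads of a library divided by its size factor. The log2 ratio of a gene or transcript sets inversion over wild type after 1 was added to each value, which pulls the ratio of sparsely read genes towards 0. Ratios of sums over several genes, and all counting intervals, were taken without this addition. The limb mesenchyme gene Prrx1 had 3857 and 3913 reads in wild type and inversion, and Hoxd13, next to the rearranged landscape, had 2264 and 1522. Xist had 2607 wild-type and 13 inversion reads, while 4 Y-linked genes summed to 826 and 2820 reads. Embryo sex and genotype thus cannot be told apart in these pools.

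The 10 genes together had 1656 wild-type and 1614 inversion reads, or 0.0178% and 0.0171% of all reads. In normalized reads this was 1677 against 1594, a log2 ratio of -0.07 with a 95% counting interval of -0.17 to 0.03. On the linear scale the ratio was 0.951, and its interval ran from 0.887 to 1.02. The summed level of these genes thus did not differ between the pools beyond counting error. In bulk tissue, fewer cells of a type and less RNA per cell cannot be told apart.

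Past 2-fold there were 0 of the 10 genes on the higher side and 0 on the lower side. All 10 belong to the 16756 genes whose mean reached 10 normalized reads, and 3.99% of those were past 2-fold on the higher side and 0.483% on the lower side. Of the 10 genes, 8 had a log2 ratio below 0, beside 53.4% of all genes. Their median was -0.15, and that of all genes -0.02. The counting interval left out 0 for 2 of the 10, Tyrobp and Mrc1, which lay on opposite sides of 0, beside 29.7% of all genes. Such intervals, and the test given next, pick out fewer genes at low read numbers. A mean of at least 100 was reached by 11831 of the 16756 genes and by 6 of the 10, and the background was not matched for depth. A two-sided exact binomial test of the reads, with Benjamini-Hochberg adjustment over all these genes, compares the 2 libraries and not the genotypes. It called 20.2% of all genes at an adjusted p under 0.05 and 0 of the 10, whose lowest adjusted p by this exact test was 0.10, with 2 of the 10 at an unadjusted p under 0.05.

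**Figure D1:**
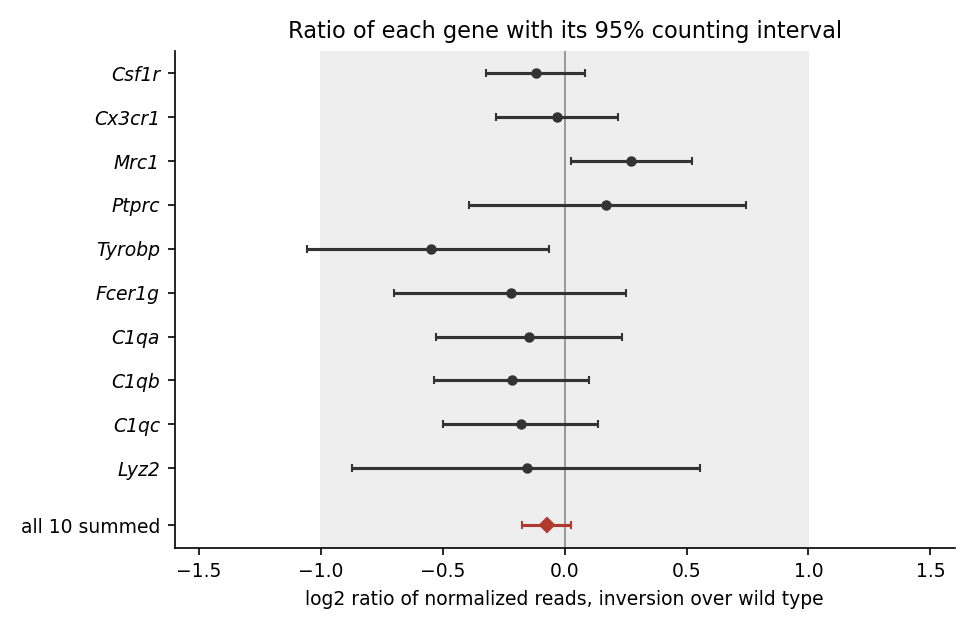
Inversion over wild type as a log2 ratio of normalized reads, for each of the 10 genes (points) and for their sum (diamond), with 95% counting intervals as bars; the grey band spans 2-fold lower to 2-fold higher. All 10 points lie inside the band, with Tyrobp lowest at -0.55 and Mrc1 highest at 0.27.

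Among the receptors, Csf1r encodes the tyrosine kinase that binds CSF1 and IL-34 and defines the mononuclear phagocyte lineage. Its transcripts, on chromosome 18 of GRCm38 (61105852 to 61132149, plus strand, 21 exons in the longest coding transcript), summed to 409 wild-type and 386 inversion reads. The log2 ratio was -0.12 with an interval of -0.32 to 0.08, so the libraries did not differ beyond counting error. The direction of this value depended on how transcripts were joined, since it was 0.04 for the transcript with the highest mean, 0.06 over protein-coding transcripts and 0.08 without ENSMUST00000115263. The last 873 bases of the longest Csf1r transcript are overlapped on the other strand by Hmgxb3, a gene looked up for this overlap after values were seen, which had 842 and 836 reads, and whether the strand was used in counting is not given in the sources used here.

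Cx3cr1 encodes the receptor for fractalkine, which guides monocytes and tissue macrophages. It is on chromosome 9 (120048683 to 120069879, minus strand) and had 269 wild-type and 270 inversion reads. The log2 ratio of -0.03, with an interval of -0.28 to 0.22, was the nearest to 0 of the 10 genes.

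Mrc1 encodes the mannose receptor, an endocytic receptor of resident macrophages that lymphatic and some other endothelia also carry. It had 243 wild-type and 301 inversion reads, a log2 ratio of 0.27 with an interval of 0.02 to 0.52. It was the highest ratio of the 10 genes, and the interval only just left out 0 (exact binomial adjusted p = 0.11). Mrc1 is on chromosome 2 (14229392 to 14332057, plus strand, 30 exons), the chromosome that carries the inversion, and ends 57.4 Mb before the start of Itga6. The retained-intron transcript of Mrc1 had 0 and 2 reads, and its coding transcript 243 and 299. The 200 bases before its annotated start in RefSeq are shown because Mrc1 had the highest ratio and the complement genes given next had ratios below 0, with capitals for the purine-rich box GAGGAA, which PU.1, the transcription factor of the myeloid lineage encoded by Spi1, is known to bind, read on either strand.
Mrc1 (chr2:14229214-14229413, plus strand): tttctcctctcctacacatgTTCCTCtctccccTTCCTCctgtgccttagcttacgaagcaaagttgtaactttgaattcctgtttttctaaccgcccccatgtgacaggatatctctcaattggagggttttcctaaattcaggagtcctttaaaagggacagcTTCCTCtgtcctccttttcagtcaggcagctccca
The box occurred 3 times in this stretch, each time on the other strand.

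C1qa, C1qb and C1qc encode the A, B and C chains of C1q, which assemble with each other and so are needed together. The genes lie side by side on the minus strand of chromosome 4, within 18.7 kb from the lower end of C1qb (136880129) to the end of C1qa (136898803), with C1qc between them. C1qa had 122 wild-type and 113 inversion reads, C1qb had 179 and 158, and C1qc had 178 and 161. Their log2 ratios were -0.15, -0.21 and -0.18, within 0.07 of each other, and each interval includes 0. Summed, the chains had 479 and 432 reads, a log2 ratio of -0.19 whose interval of -0.38 to 0.01 still includes 0. The makeup of the trio was alike in the libraries, as C1qa gave 25.5% of its reads in wild type (exact interval 21.6 to 29.6) and 26.2% in the inversion (22.1 to 30.6), and C1qb 37.4% and 36.6%.

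The stretches before the RefSeq starts of C1qb and C1qc are shown because these genes share a cluster and had like ratios, again with GAGGAA, or its reverse complement, in capitals. The coding C1qc transcript of GENCODE begins at 136893065, within the stretch printed for it, so the part after that position is not upstream of this transcript. The same holds for the last bases of the Mrc1 stretch, from 14229392 on.
C1qb (chr4:136886201-136886400, minus strand): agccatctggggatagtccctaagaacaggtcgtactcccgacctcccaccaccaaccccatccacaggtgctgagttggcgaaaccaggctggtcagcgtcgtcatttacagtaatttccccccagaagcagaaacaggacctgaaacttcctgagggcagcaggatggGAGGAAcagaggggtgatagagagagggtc
C1qc (chr4:136892915-136893114, minus strand): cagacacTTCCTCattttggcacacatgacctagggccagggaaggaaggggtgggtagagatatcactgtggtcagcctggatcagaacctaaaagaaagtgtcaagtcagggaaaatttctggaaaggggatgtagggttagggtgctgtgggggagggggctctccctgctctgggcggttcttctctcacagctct
The box was at 30 to 25 bases before the start of C1qb and at 193 to 188 bases before that of C1qc, on the other strand. Promoters were found in the RefSeq table (GRCm38.p6) for 7 of the 10 genes, Ptprc having 2, and Csf1r, Tyrobp and C1qa were without an entry. Within 250 bases before the start, GAGGAA on either strand was in 4 of these 8 promoters (Ptprc, Mrc1, C1qb and C1qc) and in 23.3% of all 32851 promoters of the table. TATAAA was in 1 of the 8 and 12.4% of all, and TGTGGT, the box of RUNX factors, in 3 of the 8 and 14.0% of all. An ETS-IRF composite motif, whose first letters can overlap GAGGAA, was in 0 of the 8 and 2.30% of all. The printed stretches all hold GAGGAA, while the promoters of Fcer1g, Cx3cr1 and Lyz2, genes with ratios below 0, lack it. A link between the box and the ratios was not tested. These matches are descriptions of letters and not binding sites.

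Tyrobp and Fcer1g encode small membrane adaptors whose cytoplasmic tails carry the activation motif for the kinase Syk. Tyrobp (chromosome 7, 30413760 to 30417582, plus strand) had 86 wild-type and 60 inversion reads, and its log2 ratio of -0.55 was the lowest of the 10 genes. The interval, -1.06 to -0.06, left out 0, and the adjusted p of the exact binomial test was 0.10. Fcer1g (chromosome 1, 171229579 to 171234307, minus strand) had 82 and 72 reads, with a log2 ratio of -0.22 and an interval of -0.70 to 0.25. The pair summed to 168 wild-type and 132 inversion reads, a log2 ratio of -0.38 (interval -0.72 to -0.05). Tyrobp made up 51.2% of the pair's reads in wild type (exact interval 43.4 to 59.0) and 45.5% in the inversion (36.8 to 54.3), and these intervals overlap.

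Lyz2 encodes the lysozyme of macrophages and granulocytes, and is a neighbour of the paralog Lyz1 on chromosome 10. It had 37 wild-type and 34 inversion reads, a log2 ratio of -0.15 with a wide interval of -0.87 to 0.55. Lyz1 had 31 and 32 reads. Of the 1217 windows of 100 bases in the Lyz2 transcript, 24 (1.97%) occurred letter for letter in Lyz1, and a read from such a window could belong to either gene. No such window was shared with another gene by the listed transcripts of the other 9 genes that have a sequence in GENCODE M21.

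Ptprc encodes CD45, the tyrosine phosphatase on the surface of nearly all leukocytes, which is made in several splice forms. Its transcripts (chromosome 1, 138063413 to 138175267, minus strand, 33 exons in the longest coding transcript) summed to 51 wild-type and 59 inversion reads. The log2 ratio was 0.17, with an interval of -0.39 to 0.74. The libraries thus did not differ in this pan-leukocyte gene beyond counting error, which is wide at this depth.

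Single transcripts differed more than gene sums. Of the 18 transcripts, 15 reached a mean of 10 normalized reads, of which 1 was past 2-fold on the higher side and 2 on the lower side. Over all 45239 transcripts past that mean, 6.66% were higher and 2.19% lower by that measure. The 3 transcripts belong to Csf1r and Ptprc.

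For Csf1r, ENSMUST00000115263 had 54 wild-type reads and 1 inversion read, a ratio of wild type over inversion of 55.2 with a counting interval of 9.52 to 2227. It made up 13.2% of the gene's reads in wild type (exact interval 10.1 to 16.9) and 0.259% in the inversion (0.00656 to 1.43). The other 3 Csf1r transcripts had 184, 95 and 76 reads in wild type against 194, 104 and 87 in the inversion, with ratios from 0.04 to 0.16 and intervals that include 0. Without ENSMUST00000115263 the gene had 355 and 385 reads. The coding transcripts ENSMUST00000025523 and ENSMUST00000115268 share 95.1% of the 100-base windows of the former, and a read from these could be assigned to either. ENSMUST00000115263 and ENSMUST00000091885 have no entry in GENCODE M21.

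For Ptprc, the wild-type library had 24 reads of ENSMUST00000112036 and 0 of ENSMUST00000074797, and the inversion library had 0 and 22. Against a floor of 3 reads per library, the former was 8.20-fold lower and the latter 7.15-fold higher in the inversion. These folds leave out the counting error of the reads seen. By the exact counting intervals, the upper limit of the log2 ratio was -2.63 for the former, and the lower limit 2.42 for the latter. In the same sense ENSMUST00000112038, with 0 and 7 reads, was 2.27-fold higher against the floor, with a lower limit of 0.49 for the log2 ratio. The remaining transcript, ENSMUST00000081416, had 27 wild-type and 30 inversion reads, and alone gave a log2 ratio of 0.11. ENSMUST00000112036 is annotated in M21 as a retained intron, and the other 3 are not in M21. By the exact interval, a library without reads of a transcript allows it a share of up to 6.98% of all Ptprc reads for wild type. For the inversion this was 6.06%, both for counting error only. How the pipeline divided reads between overlapping transcripts is not given in the sources used here, and its part in these differences was not tested.

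**Figure D2:**
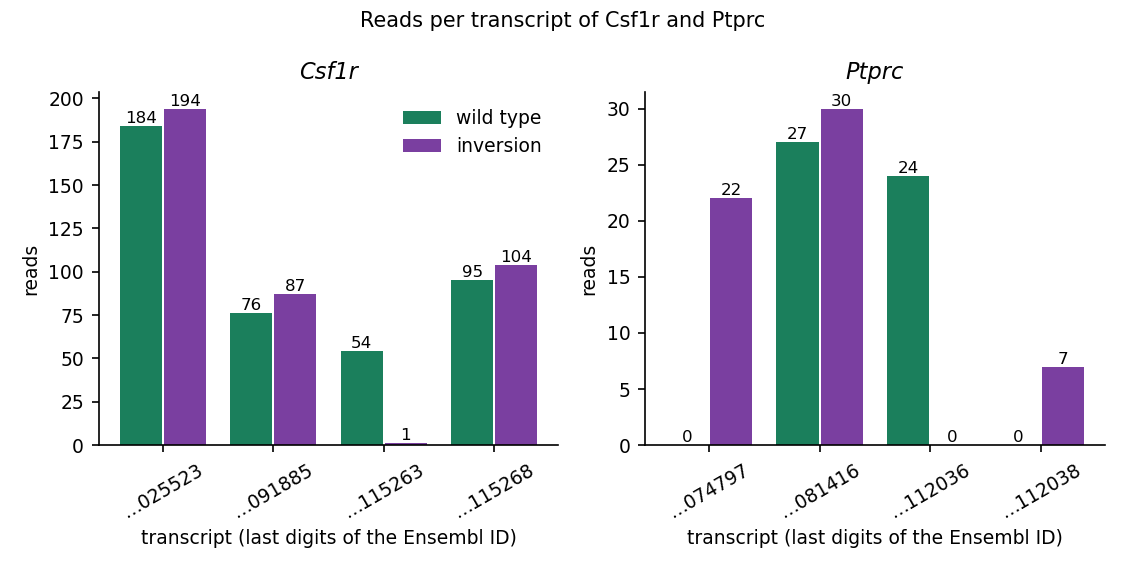
Reads assigned to each of the 4 transcripts of Csf1r (left) and Ptprc (right) in the wild-type and the inversion library, as bars from 0 with the number of reads above. ENSMUST00000115263 of Csf1r had 54 reads against 1, and 3 of the 4 Ptprc transcripts had reads in only 1 library.

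To compare levels between genes, normalized reads were divided by the length of the longest protein-coding transcript of the gene in M21, in kilobases. In wild type the order was C1qb (167 normalized reads per kilobase), C1qc (150), Tyrobp (146), Fcer1g (122), C1qa (119), Csf1r (88.1), Cx3cr1 (60.6), Mrc1 (45.8), Lyz2 (28.5) and Ptprc (10.2). The first 5 could not be ordered against their neighbours, as the counting intervals of each adjacent pair overlapped. From C1qa downwards each gene's interval lay above that of the next in wild type, at the lengths used. The longest coding transcript was not always among those listed for a gene. That of Cx3cr1 has 4493 bases, while its listed transcript has 3753, and the order at other lengths was not tested. In the inversion library the intervals of C1qa and Csf1r overlapped, as did those of Cx3cr1 and Mrc1. C1qb was above 62.3% of the genes with reads and a length in wild type and above 58.1% in the inversion, while Ptprc was above 21.0% and 22.2%. The length used for Ptprc, 5074 bases, is that of a coding transcript that is not listed. None of the listed Ptprc transcripts is coding in M21, so its level is approximate. For scale, the vessel gene Pecam1 had 204 and 182 normalized reads per kilobase.

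**Figure D3:**
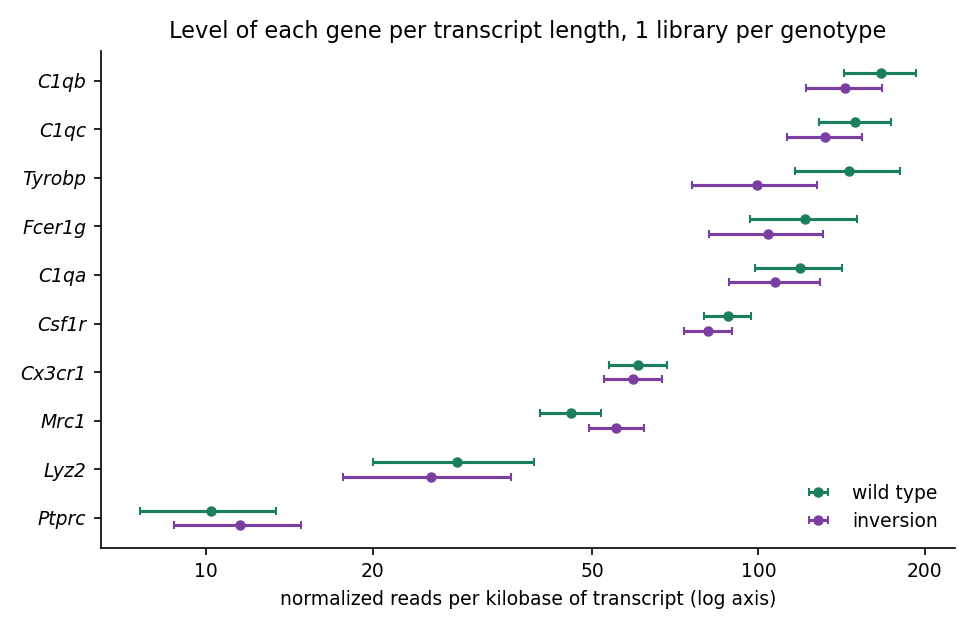
Normalized reads per kilobase of the longest protein-coding transcript (log axis) for the 10 genes, in wild type and inversion, with exact Poisson 95% intervals of the reads as bars. The C1q chains and the adaptors are at the top, between 99.2 and 167, and Ptprc at the bottom with 10.2 and 11.5.

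Against their level, the 10 genes had means between 35.5 normalized reads for Lyz2 and 398 for Csf1r.

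**Figure D4:**
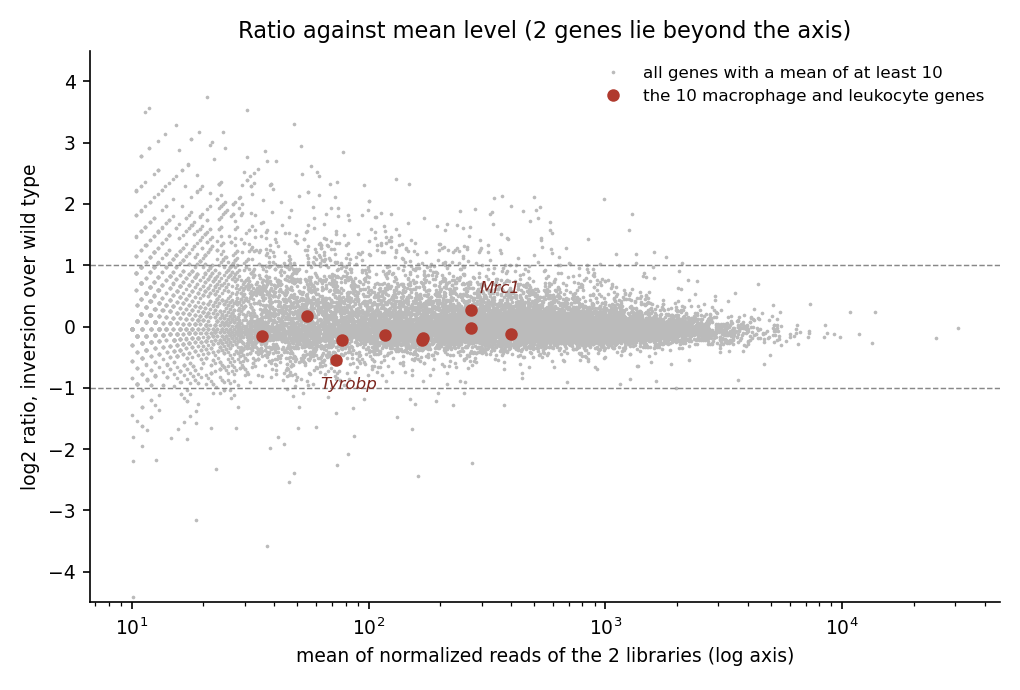
Log2 ratio of inversion over wild type against the mean of normalized reads (log axis) for all 16756 genes past the filter (grey) and for the 10 macrophage and leukocyte genes (red), with dashed lines at 2-fold; 2 genes lie beyond the vertical axis. The red points all lie between -0.55 and 0.27.

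Other genes of the programme were described from lists. The macrophage list named 50 further genes, of which 40 passed the filter, and 1 of these was at least 2-fold higher and 0 lower, with a median log2 ratio of 0.04. The defining markers were present in both pools. Adgre1, the F4/80 antigen listed as Emr1, had 136 and 114 reads, Mpeg1, a pore-forming protein of phagocytes, 260 and 224, and Aif1, an actin-binding protein, 33 and 23. The lysosomal glycoprotein gene Cd68 had 92 and 145 reads, a log2 ratio of 0.62 with an interval of 0.23 to 1.01, opposite in sign to those 3 genes. The gene past 2-fold was Cd33, a sialic acid-binding receptor, with 31 and 161 reads (log2 ratio 2.30, interval 1.78 to 2.94). Its 31 wild-type reads were all in ENSMUST00000039861 and its 161 inversion reads all in ENSMUST00000004728. The 3 genes of this list with the highest means, Dab2, Sall1 and Tmem119, are also made by cells other than macrophages, with 1252 to 1400 reads in wild type and ratios from -0.11 to 0.26. Other genes known from resident macrophages, chosen after their values were seen, ranged widely in reads. F13a1 had 126 and 115, Cbr2 48 and 45, and Folr2 28 and 38, while Lyve1 had 1 and 6, Timd4 1 and 1, and Cd163 0 and 2.

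Of the 56 pan-leukocyte genes, 51 passed the filter and 0 were past 2-fold, with a median of -0.08 and 34 of the 51 below 0. The uncoupling protein gene Ucp2 had 1241 and 1138 reads, and Coro1a and Lcp1, which organize the leukocyte actin skeleton, had log2 ratios of -0.21 and -0.10. Itgal, an integrin of leukocytes, was the highest at 0.74 (interval -0.01 to 1.57), and Vav1, an exchange factor of blood cells, the lowest at -0.80 (interval -1.33 to -0.31), with 91 and 53 reads. Spi1, chosen after its values were seen and listed as Sfpi1, had 58 and 48 reads. Over both lists, 1 of 91 genes was at least 2-fold higher (1.10%) and 0 were lower.

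Of 25 receptors listed as partners of Tyrobp or Fcer1g, 5 passed the filter and 0 were past 2-fold. The Fc receptor genes Fcgr3 and Fcgr1 had 86 and 78, and 59 and 54 reads, and Trem2, a lipid-sensing receptor, 45 and 50. Each of these 3 ratios, from -0.17 to 0.11, had an interval that includes 0. Siglech, a sialic acid-binding receptor of plasmacytoid dendritic cells and some macrophages, had 12 and 8 reads (-0.56, interval -2.12 to 0.79). The fifth gene, Treml1 (-0.74, interval -1.57 to 0.02), is a platelet receptor with an inhibitory motif of its own and is not known to pair with these adaptors, so it stands in this list without being a partner.

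On the side of the ligands, Csf1 had 315 wild-type and 352 inversion reads, and Cx3cl1, the ligand of Cx3cr1, had 236 and 269. The log2 ratios were 0.12 and 0.15, and both intervals include 0. Il34, the other ligand of Csf1r, had 4 and 1 reads. Cx3cl1 and Il34 were chosen after their values were seen. Of 15 ligand and receptor genes past the filter, 0 were past 2-fold, with a median of 0.08. Csf2ra, a cytokine receptor chain, was the highest at 0.66 (interval 0.34 to 0.99) and Ccr1, a chemokine receptor of myeloid cells, the lowest at -0.70 (interval -1.42 to -0.03). The chemokine genes Cxcl12 and Cxcl14, which had the highest means of the list, had 998 and 1341, and 1070 and 1103 reads, with log2 ratios of 0.39 and 0.01.

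Beyond C1q, 21 complement genes passed the filter, with a median of -0.15, 1 at least 2-fold higher and 0 lower. That gene was Cfp, the properdin gene on the X chromosome, with 77 and 202 reads (log2 ratio 1.34, interval 0.97 to 1.75). C3, the central component, was at 0.77, and Masp1, a protease of the lectin pathway, at -0.88, with 312 and 173 reads. Of 35 genes for the engulfment of dying cells, 0 were past 2-fold and the median was -0.02, with Lrp1, which takes up many ligands, at 0.54 and the integrin gene Itgb3 at -0.65. The 30 lysosome genes had a median of -0.10 with 0 past 2-fold, among them Psap, which had the most reads, at -0.01. The 26 cell death genes had a median of -0.12 with 0 past 2-fold, Rarb being the lowest at -0.84. In the antigen presentation list, 15 genes passed with a median of -0.14, 0 past 2-fold, and H2-Eb1, a class II chain, at -0.95 from 16 and 8 reads.

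Markers of other blood cells followed. Of the lymphocyte list 10 of 33 genes passed, with 0 past 2-fold and a median of -0.13, and those with the most reads, Ebf1 and Tcf7, are also made outside lymphocytes. Among the cell type markers past the filter, Lck of T cells had 274 and 250 reads (-0.17, interval -0.42 to 0.08). Cd79b of B cells had 24 and 19 (-0.36, interval -1.32 to 0.56). Of the 10 genes, 4 lay above 0 and 6 below. The T cell chain Cd3g had 2 and 7 reads, below the filter. Of the neutrophil and monocyte list 4 of 22 passed, with a median of -0.11. The granule protease gene Prtn3 had 90 and 104 reads (0.17), and Mmp9, a gelatinase that other limb cells also make, was at 1.61 (28 and 90 reads). Mpo, the granule peroxidase gene, had 14 and 7 reads (-0.94, interval -2.59 to 0.37). S100a8 had 14 and 1 reads and S100a9 had 8 and 1, below the filter. Of the mast cell list 5 of 13 passed, with a median of -0.52, and Gata2, which endothelial and other cells also use, was past 2-fold on the lower side (220 and 93 reads, -1.27). Cpa3, the mast cell carboxypeptidase, had 70 and 42 reads, a log2 ratio of -0.76 with an interval of -1.36 to -0.20. Kit, the receptor for stem cell factor and the gene of this list with the most reads, had 539 and 531 (-0.06), and Hdc, which makes histamine, 24 and 24 (-0.03). The defining mast cell genes Cma1, Ms4a2 and Tpsb2 were nearly without reads, with 6 and 3, 1 and 2, and 0 and 1. The 13 platelet genes had a median of -0.42 with 0 past 2-fold, 9 below 0 and 4 above. Among those whose mean reached 100 the median was -0.07. Ppbp had 161 and 118 reads and Pf4 124 and 86, both with intervals below 0. Vwf, with the highest mean of the list, had 145 and 191 reads (0.36, interval 0.04 to 0.68), and Gp1bb 129 and 141 (0.09).

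The vessel and red cell lists had 0 genes past 2-fold among 21 and 18. Their medians were -0.10 and -0.16, beside -0.15 for the 10 genes. Cdh5, the vascular cadherin, had 1253 and 1217 reads, and Hbb-y, an embryonic globin, 14408 and 12240. The highest ratios past the filter were above 0. In the vessel list this was Egfl7, with 347 and 565 reads (0.67, interval 0.47 to 0.86). In the red cell list it was Ank1, with 126 and 212 reads (0.71, interval 0.39 to 1.04). The erythroid list had 16 of 18 genes below 0 and summed to 32853 and 29307 reads. The endothelial list had 16 of 21 below 0 and summed to 9833 and 9592. Of all genes past the filter, 53.4% lay below 0. The medians of the 10 genes, the vessels and the red cells thus all lay slightly below 0, as did that of all genes (-0.02). The lysosome (-0.10) and cell death (-0.12) lists also lay below 0, while the macrophage list (0.04) and the ligand and receptor list (0.08) lay above. The part of vessel and blood content in the C1q and adaptor values was not tested. The forelimb list had a median of -0.04 over 12 genes, with Sall3 past 2-fold on the higher side (1.07). The hindlimb genes Tbx4 and Pitx1 had 430 and 394, and 44 and 29 reads.

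**Figure D5:**
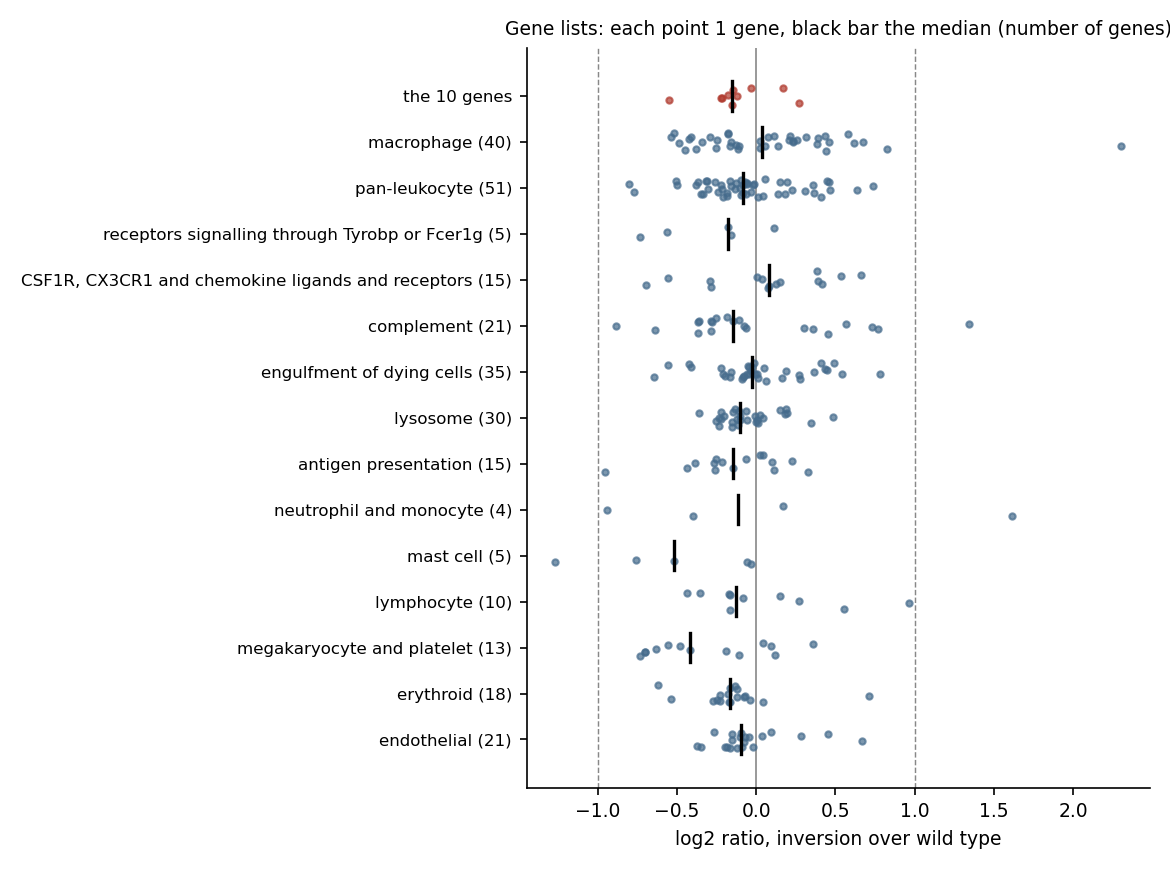
Log2 ratio of inversion over wild type for the genes past the filter in each list drawn (1 point per gene, number of genes in parentheses, black bar the median), with the 10 genes at the top in red and dashed lines at 2-fold. Medians lie between -0.52 for the mast cell list and 0.08 for the list of ligands and receptors, and the points beyond 2-fold in these lists are Cd33, Cfp, Mmp9 and Gata2. The limb, cell death and Lyz2 paralog lists are not drawn.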

How the data were processed

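E12.5 distal forelimbs were profiled by stranded, poly(A)-selected RNA-seq, with 1 library per genotype. Per the study's methods the authors mapped reads to NCBIM37 and counted them with the HTSstation pipeline, and the submitters' processing notes name Bowtie2. The deposited signal columns hold reads per transcript divided by a library size factor, 0.5 standing for no reads, and their mean. Columns of the authors' own comparison were deposited too (a ratio, a log2 fold change and raw and adjusted p-value columns) and were left aside. RPKM is the unit named in the methods, but within each library the values of transcripts with reads were whole multiples of a common step. Each listed transcript had reads in at least 1 library; genes without a row are not analysed here.

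Whole reads were recovered for 100% of values (within 0.1 normalized reads), and transcripts were summed by symbol and chromosome. Log2 ratios of single genes and transcripts used a pseudocount of 1, those of sums over genes and all intervals none. Genes whose mean was below 10 were filtered out. Intervals of ratios and shares are exact (Clopper-Pearson), those of levels exact Poisson. The planned design held no test; an exact binomial test with Benjamini-Hochberg adjustment was an alternative and called 3386 genes. Transcript identifiers linked 88.1% of transcripts to GENCODE M21, whose GRCm38 positions are printed although mapping used NCBIM37, without conversion. In the lists, 4 entries were found through their transcripts.

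The members and lists were chosen with earlier results of these data known. Genes named from a list are among the 3 with the highest mean and the 2 with the highest and lowest ratio past the filter, or are listed cell type markers, unless stated otherwise. The steps were tested on simulated libraries. Tests and intervals used scipy 1.17.1 and statsmodels 0.14.6, tables pandas 2.3.3 and numpy 2.4.6, and plots matplotlib 3.10.9, under Python 3.11.15.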

Additional observations from a re-analysis of the deposited data

How the results depend on the processing

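No paired analysis was possible because each genotype has only 1 library. The summed log2 ratio of the 10 genes was between -0.09 and -0.05, and their median between -0.17 and -0.13, under the alternatives run for each: other scalings, transcript choices, pseudocounts, filters, and sums without Csf1r or Lyz2. In each of these the number of genes past 2-fold stayed at 0, also at 1.5-fold and 4-fold and by the exact binomial test. Of 61 values for 1 of the genes under an alternative, 61 stayed within their counting interval and 3, all of Csf1r, had another sign. Protein-coding transcripts left no value for Ptprc. Scaling by the total or the upper quartile shifted all ratios by only 0.0075 and -0.0179 and so tests little. Of 141 list medians, 3 changed sign: the neutrophil and monocyte list (0.51 with the transcript of highest mean), antigen presentation (0.08 with a mean of at least 100) and Lyz1 (-0.0080 with upper quartile scaling). Of 177 counts of list genes past 2-fold, 40 moved by over 1.5 times. Over all genes, 668 were past 2-fold on the higher side and 81 on the lower side, against 1992 and 1089 without a filter, 139 and 12 among genes whose mean reached 100, and 412 and 110 from protein-coding transcripts. At 1.5-fold these counts were 1577 and 341, and at 4-fold 113 and 13. Leaving out a replicate could not be run with 1 library per genotype. Depth limits Lyz2 and Ptprc, which have few reads. Leaving out ENSMUST00000115263 and using ENSMUST00000081416 alone were chosen after seeing the data.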
